A study of Homo sapiens with 8 samples.

Results

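In 2 diffuse large B cell lymphoma cell lines, 61 genes had little or no RNA with the solvent DMSO and measurable RNA with iEZH, which the title of the series describes as a small molecule inhibitor of PRC2. A gene was counted when its row spanned 300 bp or more, both DMSO libraries of a line were under 0.5 FPKM (fragments per kilobase of gene length, scaled to sequencing depth) and both iEZH libraries of that line were at 1 FPKM or more. In HT 41 genes met this rule and in SUDHL6 20, of 13333 and 12706 rows of that span, and no gene met it in both lines (0 of 41 and 0 of 20). Only 13 of the 41 and 7 of the 20 were also under 0.5 FPKM in both DMSO libraries of the other line. Of all such low rows 1.81% met the rule in SUDHL6 and 2.57% in HT, so the lack of a shared gene is no result about the lines. Together the lists hold 61 of the 13986 longer genes with a row in either table. The study treated both established cell lines for 96 hours (day 4) with iEZH or DMSO. The 4 groups, HT with DMSO, HT with iEZH, SUDHL6 with DMSO and SUDHL6 with iEZH, had 2 libraries each. No dose is given in the labels, and nothing says whether the libraries of a group came from separate cultures, so p-values measure the spread between these libraries, which may be technical. The members were thus chosen by the FPKM values of all 4 libraries of a line, so the change in that line is described without a test, and tests are given only in the other line.

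PRC2, the Polycomb repressive complex 2, places methyl groups on lysine 27 of histone H3 through its enzyme subunit EZH2 or EZH1, and this mark is found over genes that a cell lineage keeps silent. In mature B cells and many other cells, classical targets of the complex are homeobox and other developmental genes with promoters rich in CG dinucleotides, and genes that belong to other tissues. EZH2 is abundant in germinal centre B cells, the cells from which many diffuse large B cell lymphomas derive.

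The HT libraries held 72385330 to 81858662 total reads and the SUDHL6 libraries 59563321 to 94821806, per the file headers. The B cell markers MS4A1, CD79A, CD79B, PAX5, CD22, BCL6 and CD74 were at 1 FPKM or more in both lines. Of 6 epithelial markers, none had a row in either table used here. In SUDHL6, none of 11 T and NK cell, 6 erythroid and platelet or 8 stromal and endothelial markers had a row. The 2 of 9 myeloid markers that did, CD14 and CD68, summed to 2.11 to 2.36 FPKM with DMSO and 2.14 to 2.52 with iEZH. In HT, 5 of 11 T and NK cell markers summed to 0.96 to 1.6 FPKM with DMSO and 2.1 to 2.94 with iEZH, and 3 of 9 myeloid markers to 4.74 to 6.98 and 3.4 to 4.47. In the same line 3 of 8 stromal and endothelial markers, DCN, LUM and PECAM1, summed to 3.36 to 3.65 and 3.98 to 5.8 FPKM, and 1 of 6 erythroid and platelet markers, HBA1, was at 0.252 to 0.455 and 0.674 to 1.15. Except for the myeloid sum, each of these HT sums was higher in both iEZH libraries than in either DMSO library. The collagen genes COL1A1, COL1A2 and COL3A1 and the endothelial genes VWF and CDH5 had no row in HT. The part of these cell type markers in the genes described here was not tested.

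Silent is a matter of degree for these genes. In HT only DLX2 was at 0.0613 FPKM in both DMSO libraries. This low value, called the floor here, is shared by 1656 of the 54800 HT values, with 3 just below it. In SUDHL6 1041 of 52144 values share a floor of 0.0712 FPKM, with 29 below it. The authors' headers give the level of 50 reads, from which they rate a value as quantifiable, as 0.305 to 0.345 FPKM in HT and 0.264 to 0.42 in SUDHL6. Each library has 1 such level, applied to short and long genes alike. Of the 41 HT genes, 13 were under that level in both DMSO libraries, 12 in 1 and 16 in neither. Of the 20 SUDHL6 genes, 1 (TMEM200A) was under it in both, 8 in 1 and 11 in neither. Mean DMSO levels of the members had a median of 0.317 FPKM in HT and 0.399 in SUDHL6, so most were low rather than absent with DMSO. With iEZH the mean level ran from 1.02 to 9.26 FPKM in HT, with a median of 1.39, and from 1.09 to 3.23 in SUDHL6, with a median of 1.55. In HT 25 of 41 genes and in SUDHL6 9 of 20 stayed under a mean of 1.5 FPKM, so the level reached was modest for most.

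Genes with low RNA under DMSO were many more than those switched on. In HT 1595 longer rows were under 0.5 FPKM in both DMSO libraries, and the 41 genes are 2.57% of them. In SUDHL6 there were 1103 such rows, and the 20 genes are 1.81%. Both shares are over rows that the authors kept as detectable, so silent genes without a row are outside them. The reverse rule, under 0.5 FPKM in both iEZH libraries and at 1 FPKM or more in both DMSO libraries, was met by 2 genes in each line. The ratio of 41 to 2 and of 20 to 2 is a description, since both counts come from the contrast that chose the members. Most low rows stayed low: 1109 of the 1595 HT rows and 639 of the 1103 SUDHL6 rows were also under 0.5 FPKM in both iEZH libraries. Staying low does not mean that a row was unchanged. Over all low rows, 83.1% in HT and 81.1% in SUDHL6 had a log2 change of FPKM + 1 above 0. The iEZH mean was at least 2 times the DMSO mean in 36.1% of low HT rows and 36% of low SUDHL6 rows. Low rows were chosen by their DMSO values, so these shares carry no test. At the border, CELF6 in HT lay just inside with 0.499 and 0.461 FPKM with DMSO and 1.19 and 1.19 with iEZH, as did GRHL1 with 0.369 and 0.499, and 1.38 and 1.5. Just outside in HT lay NLGN2, with 0.504 and 0.43 FPKM with DMSO and 1.18 and 1.25 with iEZH, and LOC730091, with 0.497 and 0.454, and 0.997 and 1.12. In SUDHL6 GAB1 (0.499 and 0.365, then 1.9 and 1.2 FPKM) and C2orf88 (0.462 and 0.497, then 1.95 and 1.45) lay just inside. PARP15 (0.187 and 0.244, then 0.998 and 1.29) and BDNF-AS1 (0.348 and 0.342, then 0.998 and 1.02) lay just outside.

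**Figure D1:**
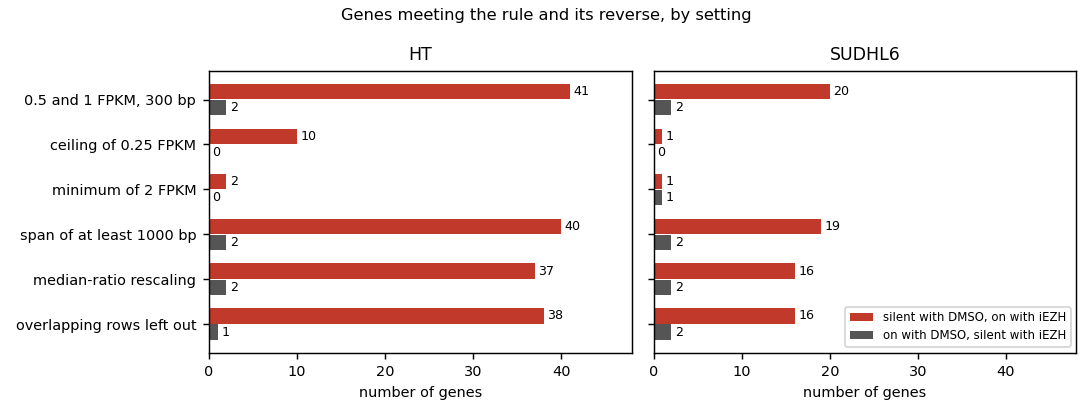
Number of genes (x axis) in HT (left) and SUDHL6 (right) that met the rule (red bars) or its reverse (grey bars), at the thresholds used (top) and under 5 other settings. With the ceiling lowered to 0.25 FPKM 10 HT genes and 1 SUDHL6 gene were left, and with the minimum raised to 2 FPKM 2 and 1.

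A tissue of normal expression could be named from textbook knowledge for 27 of the 61 genes, 23 from HT and 4 from SUDHL6. This grouping was made after the genes were known and carries no test, and the share of such genes over all rows was not counted. In HT the largest group was of the nervous system and neuroendocrine cells, with 9 of 41 genes. Blood vessels and platelets followed with 5, epithelium with 3, and muscle and heart, liver and kidney, and connective tissue and bone with 2 each. The separate neuron and neuroendocrine list, counted below, held 1 of the 41, CHGB. A named tissue does not exclude others: AKAP5, APBB1, FABP6 and GRHL1 were at 1 FPKM or more in both SUDHL6 DMSO libraries. Of the nervous system and epithelial groups, KHDRBS3, SNPH and IL17RC were under 0.5 FPKM there and CELF6 lay between. CHGB, CYB561, DLX1 and DLX2 had no SUDHL6 row. IL18, a SUDHL6 member grouped with immune cells other than B cells, was at 30.6 and 42.2 FPKM in HT with DMSO. For the other 18 HT genes and 16 SUDHL6 genes no tissue is given, since they are broadly expressed or their normal tissue is less certain.

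**Figure D2:**
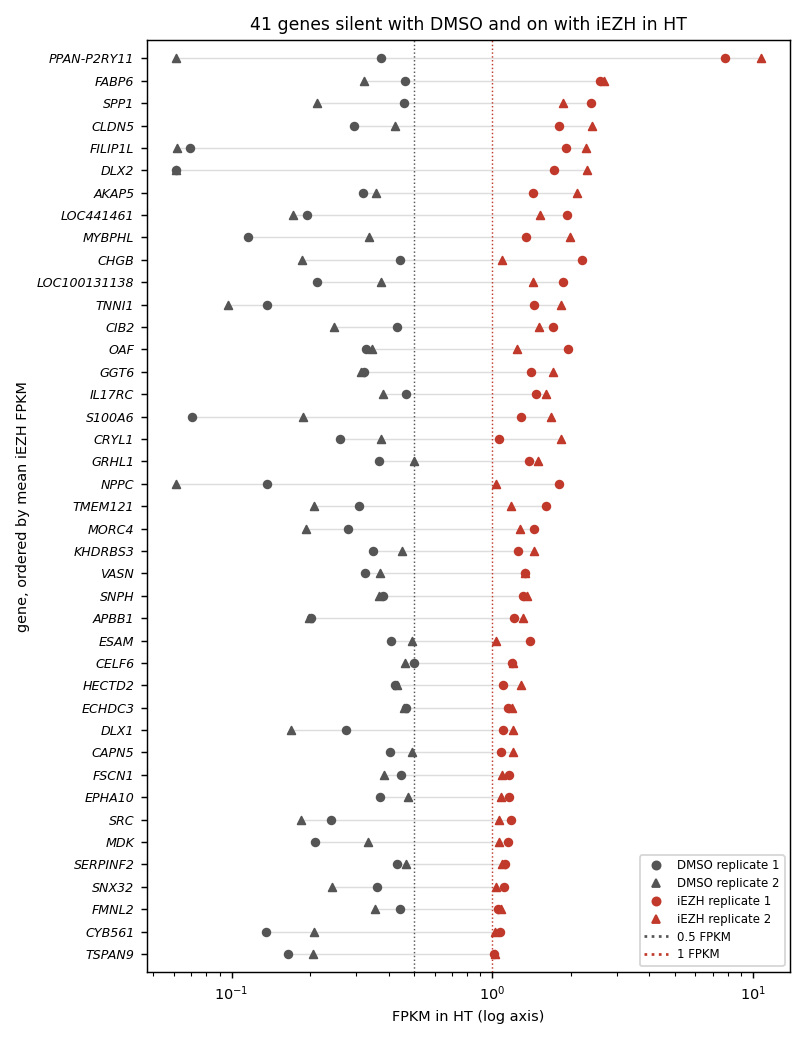
FPKM (log axis) of the 41 genes in the 4 HT libraries, DMSO in grey and iEZH in red, with circles for replicate 1 and triangles for replicate 2 and dotted lines at 0.5 and 1 FPKM. The gap between the colours is set by the rule, and apart from PPAN-P2RY11 the iEZH values lie between 1.01 and 2.67 FPKM.

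Among the nervous system genes, the homeobox factors DLX1 and DLX2 stand out by their position. They specify inhibitory interneurons of the forebrain and pattern the jaw, and lie within 100 kb of each other on hg19 chromosome 2 (172950207 to 172954401 and 172964165 to 172967478). DLX2 was at the floor of 0.0613 FPKM in both HT DMSO libraries and at 1.72 and 2.3 FPKM in the iEZH libraries, and no fold is given against the floor. DLX1 was at 0.274 and 0.168 FPKM with DMSO and at 1.1 and 1.2 with iEZH. Every other pair of HT members, and every pair of SUDHL6 members, lay more than 100 kb apart. The gap between the groups is set by the rule for both DLX genes, and neither had a row in the SUDHL6 table.

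CHGB encodes chromogranin B of secretory granules in neuroendocrine cells (chromosome 20, 5891973 to 5906005). It was at 0.443 and 0.186 FPKM with DMSO and 2.2 and 1.09 with iEZH, so its iEZH libraries differed from each other by more than the lower of them exceeded the higher DMSO library. CYB561, the cytochrome b561 that carries electrons into chromaffin granules, was at 0.135 and 0.208 and then 1.07 and 1.02 FPKM. AKAP5, a scaffold of protein kinase A in the postsynaptic density, was at 0.318 and 0.357 FPKM with DMSO and 1.43 and 2.1 with iEZH. The granule and synapse genes thus reached levels of about 1 to 2 FPKM, and CHGB varied most between its iEZH libraries.

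APBB1 encodes an adaptor that binds the amyloid precursor protein, and its DMSO values of 0.202 and 0.199 FPKM and iEZH values of 1.21 and 1.3 FPKM were close within each group. SNPH, syntaphilin, anchors mitochondria in axons. It was at 0.382 and 0.367 FPKM with DMSO and 1.31 and 1.35 with iEZH. The remaining nervous system members were RNA-binding proteins that act in splicing. CELF6, given above, lay at the border of the rule, and KHDRBS3 was at 0.348 and 0.449 and then 1.26 and 1.45 FPKM.

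Blood vessel and platelet genes followed. CLDN5, the tight junction protein of endothelium (chromosome 22, 19510546 to 19512860), was at 0.293 and 0.425 FPKM with DMSO and 1.8 and 2.41 with iEZH, 1 of the 6 HT members with an iEZH mean of 2 FPKM or more. ESAM, an adhesion molecule of endothelium and platelets, was at 0.407 and 0.49 and then 1.4 and 1.04 FPKM. NPPC, the precursor of C-type natriuretic peptide, was at 0.136 FPKM and the floor with DMSO and at 1.8 and 1.03 FPKM with iEZH. TSPAN9, a tetraspanin of platelets, came nearest to the minimum, at 0.164 and 0.205 and then 1.01 and 1.03 FPKM. Apart from CLDN5 these genes had at least 1 iEZH library under 1.4 FPKM, and the other endothelial markers VWF and CDH5 had no row in HT.

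Muscle, epithelial and connective tissue genes numbered 2, 3 and 2. TNNI1, the inhibitory troponin subunit of slow skeletal muscle (chromosome 1, 201372894 to 201390874), was at 0.137 and 0.0969 FPKM with DMSO and 1.44 and 1.82 with iEZH. MYBPHL, a myosin binding protein of the heart atria, was at 0.116 and 0.336 and then 1.34 and 1.98 FPKM. For both muscle genes a gap between the groups is set by the rule, and neither had a row in the SUDHL6 table.

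FABP6, the bile acid binding protein of the ileum (chromosome 5, 159614373 to 159665729), had the highest iEZH level in HT among genes that overlap no other row. It was at 0.461 and 0.321 FPKM with DMSO and 2.59 and 2.67 with iEZH. IL17RC, a receptor subunit for interleukin 17 on epithelial cells, was at 0.465 and 0.382 and then 1.47 and 1.6 FPKM, and GRHL1, an epidermal transcription factor, is given above. All 3 epithelial genes had a row in the SUDHL6 table too, with values given below.

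SPP1 encodes osteopontin, a secreted protein of bone and macrophages, and was at 0.457 and 0.213 FPKM with DMSO and 2.39 and 1.87 with iEZH. S100A6, a calcium-binding protein of fibroblasts and epithelia, was at 0.0707 and 0.188 and then 1.29 and 1.67 FPKM. SERPINF2, the plasmin inhibitor made by the liver, was at 0.431 and 0.464 and then 1.12 and 1.09 FPKM, and CRYL1, a dehydrogenase of the uronate cycle abundant in liver and kidney, at 0.261 and 0.373 and then 1.06 and 1.84. SERPINF2 had the smallest ratio of means of the 41 genes, 2.46, and S100A6 1 of the larger, 11.4.

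Members with no single tissue included signalling and cytoskeletal genes. SRC, a tyrosine kinase, was at 0.241 and 0.184 FPKM with DMSO and 1.17 and 1.06 with iEZH. MDK, the growth factor midkine, was at 0.208 and 0.334 and then 1.15 and 1.06 FPKM, and EPHA10, an Eph receptor, at 0.37 and 0.474 and then 1.16 and 1.08. These signalling genes all stayed close to 1 FPKM. FSCN1, the actin-bundling protein fascin, was at 0.444 and 0.385 and then 1.16 and 1.09 FPKM, and FMNL2, a formin that elongates actin filaments, at 0.442 and 0.355 and then 1.05 and 1.08. LOC441461, which RefSeq names STX17-DT and lists as a long noncoding RNA, was at 0.194 and 0.172 and then 1.93 and 1.52 FPKM, and LOC100131138, listed as a long noncoding RNA (VHRT), at 0.212 and 0.372 and then 1.86 and 1.43. Both noncoding genes reached higher levels than the actin genes. The other HT members, CAPN5, CIB2, ECHDC3, GGT6, HECTD2, MORC4, OAF, SNX32 and TMEM121, had iEZH means between 1.07 and 1.6 FPKM.

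**Figure D3:**
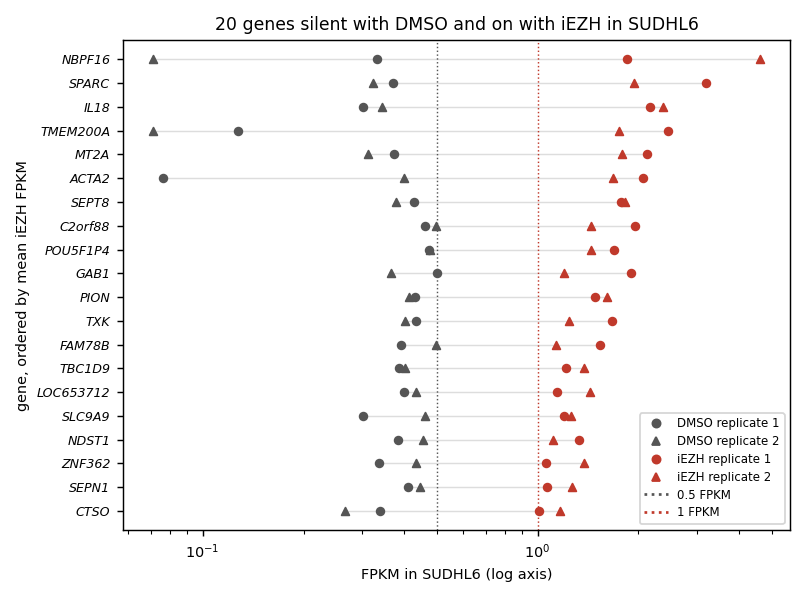
FPKM (log axis) of the 20 genes in the 4 SUDHL6 libraries, DMSO in grey and iEZH in red, with circles for replicate 1 and triangles for replicate 2 and dotted lines at 0.5 and 1 FPKM. Most DMSO values lie between 0.3 and 0.5 FPKM, and TMEM200A and NBPF16 have a DMSO library at the floor of 0.0712 FPKM.

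In SUDHL6 the members were fewer, and a tissue is named for 4 of the 20. SPARC, a secreted matrix protein of bone and fibroblasts (chromosome 5, 151040656 to 151066615), was at 0.371 and 0.323 FPKM with DMSO and 3.18 and 1.94 with iEZH. IL18, a cytokine of macrophages and keratinocytes (chromosome 11, 112013973 to 112034840), was at 0.301 and 0.343 FPKM with DMSO and 2.16 and 2.36 with iEZH. The 2 SPARC iEZH libraries differed by more than the IL18 ones, and in both genes a gap to the DMSO libraries is set by the rule. TMEM200A, a membrane protein, was at 0.128 FPKM and the floor of 0.0712 with DMSO and at 2.46 and 1.75 with iEZH.

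MT2A, a metallothionein that binds zinc and copper, was at 0.372 and 0.312 FPKM with DMSO and 2.12 and 1.78 with iEZH, and has close paralogs whose reads can be confused with its own. SEPT8, a septin of the cytoskeleton, was at 0.429 and 0.379 and then 1.78 and 1.83 FPKM. TXK, a TEC family tyrosine kinase of T and NK cells, was at 0.432 and 0.402 and then 1.67 and 1.24 FPKM. None of the 11 T and NK cell markers had a row in SUDHL6, so TXK stood there without them. GAB1, an adaptor of receptor signalling, is given above. PION, a protein described as activating gamma-secretase, was at 0.43 and 0.412 and then 1.48 and 1.61 FPKM, and NDST1, a heparan sulfate sulfotransferase, at 0.382 and 0.454 and then 1.33 and 1.11. The other SUDHL6 members with no other row over them, CTSO, FAM78B, LOC653712, SEPN1, SLC9A9, TBC1D9 and ZNF362, had iEZH means between 1.09 and 1.33 FPKM.

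For some members the reads cannot be assigned with certainty, because another row of the table covers part of the same stretch. This holds for 3 of 41 HT members (7.32%) and 4 of 20 SUDHL6 members (20%), where 19.8% and 19.4% of all longer rows overlap another row. PPAN-P2RY11, a readthrough of 2 neighbouring genes, had the highest HT value, at 0.375 FPKM and the floor with DMSO and 7.8 and 10.7 with iEZH. Its partner P2RY11 was at 6.91 and 5.73 and then 11.9 and 0.865 FPKM, and PPAN at 38.4 and 25.7 and then 61.2 and 29.7, so these rows moved differently between the 2 iEZH libraries. FILIP1L (chromosome 3, 99551987 to 99833349) was at 0.069 and 0.0616 FPKM with DMSO and 1.91 and 2.29 with iEZH, and C3orf26, which overlaps it, at 52.9 and 46.1 and then 77.4 and 66.3. VASN, a protein of vascular smooth muscle, was at 0.325 and 0.372 and then 1.33 and 1.34 FPKM and lies within the span of CORO7 (31.9 and 26.9, then 39.9 and 29.4).

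In SUDHL6, ACTA2, smooth muscle actin (chromosome 10, 90694830 to 90751147), was at 0.0762 and 0.4 FPKM with DMSO and 2.07 and 1.68 with iEZH. The death receptor gene FAS, which overlaps it, was at 0.775 and 0.399 and then 1.51 and 1.21 FPKM, higher in both iEZH libraries as well. NBPF16 was at 0.331 FPKM and the floor and then 1.84 and 4.62 and shares its stretch with NBPF15, a row of its own in the table, although RefSeq now lists NBPF16 as an older symbol of NBPF15 (17.1 and 17.2, then 15.6 and 14.3). POU5F1P4, which RefSeq lists as a transcribed pseudogene, was at 0.473 and 0.476 and then 1.7 and 1.44 FPKM within the span of ASH1L (11.4 and 14.8, then 12.1 and 13.8). SEPT8 overlaps CCNI2 (0.201 and 0.12, then 0.517 and 0.57 FPKM). Leaving out the overlapping rows leaves 38 HT and 16 SUDHL6 genes.

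Gene lists of tissues and families were counted beside all longer rows and beside the rows that were under 0.5 FPKM in both DMSO libraries. In HT the developmental transcription factor list gave 2 members, DLX1 and DLX2, of 41 (4.88%), where 0.653% of all longer rows and 1.76% of low rows belong to it. It had 28 low rows, of which the DLX genes were the ones to reach the rule. The endothelium list gave CLDN5 and ESAM of 8 low rows, the epithelium list CLDN5 and GRHL1 of 16, the stroma, extracellular matrix and adhesion list FILIP1L and S100A6 of 39, and the growth factor, cytokine and morphogen list EPHA10 and MDK of 31. The neuron and neuroendocrine list gave CHGB of 13 low rows, the muscle and heart list TNNI1 of 11, and the myeloid list SPP1 of 13. Over all low HT rows 2.57% met the rule, and these counts of 1 or 2 genes are descriptions of small lists.

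Other lists had low rows in HT and no member. Only 2.57% of all low HT rows met the rule, so the lack of a member in lists this small is no result about them. The T and NK cell list had 15 low rows, testis, germ cell and placenta 17, ion channels and synaptic receptors 28, G protein coupled receptors 30, interferon response 13, zinc finger genes 18 and plasma and memory B cells 7. Liver, kidney, gut and pancreas had 10, erythroid and megakaryocyte 6, histone clusters 2, and glia and myelin and cell cycle inhibitors 1 each. In SUDHL6 SPARC came from 19 low rows of the stroma list, ACTA2 from 15 of the muscle list, IL18 from 24 of the growth factor list, MT2A from 7 of the liver, kidney, gut and pancreas list, ZNF362 from 17 of the zinc finger list, and POU5F1P4 from 15 of the developmental factors by its symbol. No other tissue list had a SUDHL6 member, and 1.81% of all low SUDHL6 rows met the rule. Of the 25 Polycomb and H3K27 genes with a row in each table, none was under 0.5 FPKM in both DMSO libraries of either line. By RefSeq, 57 of the 61 members code for protein, 2 are long noncoding RNAs and 2 are transcribed pseudogenes.

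The members were spread over the genome. The 41 HT genes lay on 20 chromosomes, with 6 on chromosome 11 (14.6%, where 5.69% of all longer rows lie) and 5 on chromosome 2. The 20 SUDHL6 genes lay on 10 chromosomes, with 5 on chromosome 1 (25%, against 10.5% of rows) and 4 on chromosome 4. The median span was 17981 bp for HT members against 23920 bp for all longer HT rows, and 36964 bp for SUDHL6 members against 24684 bp.

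Promoter sequences of RefSeq (GRCh38.p14) could be matched for 37 of the 61 members (60.7%), under 80%, so no summary over the members is given. To show the range, 6 promoters are printed. They are the 3 with the most and the 3 with the fewest CG dinucleotides in the 300 bases of the RefSeq entry, among protein-coding members taken by the rule for named genes. Outside that rule, HECTD2 had 50 CG in 300 bases, more than FILIP1L with 48, and SLC9A9 had 2 and TXK 4, fewer than MYBPHL with 5. Each sequence is the 250 bases before the RefSeq start, 5′ to 3′ on the gene's strand, with each CG in capitals. A gene can have other starts, and which one these cells used is not known from the tables. Over 27305 RefSeq promoters, the middle of the distribution (lower to upper quartile) holds 3 to 23 CG in such a stretch, with a median of 11.
GRHL1, chr2:9951443-9951692, plus strand, 45 CG: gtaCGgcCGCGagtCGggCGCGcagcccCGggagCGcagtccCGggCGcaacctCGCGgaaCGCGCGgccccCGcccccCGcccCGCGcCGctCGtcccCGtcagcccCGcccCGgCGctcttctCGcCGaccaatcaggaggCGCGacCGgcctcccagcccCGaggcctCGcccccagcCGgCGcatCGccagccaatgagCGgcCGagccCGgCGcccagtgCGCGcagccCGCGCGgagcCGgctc
ZNF362, chr1:33256242-33256491, plus strand, 44 CG: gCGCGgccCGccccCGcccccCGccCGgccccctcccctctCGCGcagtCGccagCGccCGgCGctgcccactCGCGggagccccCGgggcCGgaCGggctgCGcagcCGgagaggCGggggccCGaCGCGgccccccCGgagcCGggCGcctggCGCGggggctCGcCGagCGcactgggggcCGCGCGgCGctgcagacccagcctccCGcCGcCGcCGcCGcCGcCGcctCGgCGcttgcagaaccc
FILIP1L, chr3:99876174-99876423, minus strand, 38 CG: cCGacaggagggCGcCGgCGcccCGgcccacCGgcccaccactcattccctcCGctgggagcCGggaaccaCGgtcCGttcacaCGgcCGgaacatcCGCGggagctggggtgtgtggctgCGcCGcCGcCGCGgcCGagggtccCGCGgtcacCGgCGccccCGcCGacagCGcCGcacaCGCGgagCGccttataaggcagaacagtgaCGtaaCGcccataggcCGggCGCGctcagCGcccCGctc
MYBPHL, chr1:109307012-109307261, minus strand, 4 CG: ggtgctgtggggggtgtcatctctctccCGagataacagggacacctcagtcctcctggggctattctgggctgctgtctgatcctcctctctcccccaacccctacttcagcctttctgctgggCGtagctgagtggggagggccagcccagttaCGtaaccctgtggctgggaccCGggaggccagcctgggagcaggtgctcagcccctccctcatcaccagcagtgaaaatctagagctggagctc
FABP6, chr5:160229256-160229505, plus strand, 3 CG: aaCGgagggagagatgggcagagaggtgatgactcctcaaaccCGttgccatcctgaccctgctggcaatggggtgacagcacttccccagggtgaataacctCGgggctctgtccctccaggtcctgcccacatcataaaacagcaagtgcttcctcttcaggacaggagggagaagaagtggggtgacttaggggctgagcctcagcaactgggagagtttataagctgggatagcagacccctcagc
C2orf88, chr2:190137527-190137776, plus strand, 2 CG: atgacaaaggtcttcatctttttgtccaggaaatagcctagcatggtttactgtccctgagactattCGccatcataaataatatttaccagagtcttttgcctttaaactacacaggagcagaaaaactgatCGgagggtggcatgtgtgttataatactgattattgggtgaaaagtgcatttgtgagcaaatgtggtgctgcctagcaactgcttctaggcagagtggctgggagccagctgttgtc

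GRHL1, ZNF362 and FILIP1L thus have 38 to 45 CG, above the upper quartile, and MYBPHL, FABP6 and C2orf88 have 2 to 4, at the low end. CG-rich and CG-poor promoters therefore both occur among the members. The sequences say nothing of the histone mark at these genes, which was not measured in these files.

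The line that did not choose a gene gives values independent of the choice. Each line was first fitted alone, with rows of any span and no replicate block. In these fits 0 of the 16 members that could be tested there were called higher or lower. These fits called 0.152% of all SUDHL6 genes tested higher and 0.116% lower, and 0.459% and 0.15% of all HT genes. The count depends on the fit. With rows of 300 bp or more only, 0 HT members were called higher in SUDHL6, where 0.0182% of genes tested were. In HT 2 SUDHL6 members were then called higher, where 4.07% were. With both lines in 1 fit, 3 HT and 2 SUDHL6 members were called higher, among 259 and 433 genes. With each line alone, rows of any span and a block for replicate number, 8 HT members were called higher in SUDHL6, where 13.3% of all genes tested were. With it 5 SUDHL6 members were called higher in HT, where 13.8% were. The 8 include CELF6, S100A6 and SNX32, which entered the test only through iEZH, and the labels give replicate numbers no meaning. In the first fits, the members nearest to the threshold were FABP6 in SUDHL6 (limma adjusted p = 0.0659) and SEPN1 in HT (limma adjusted p = 0.0588). Of the 41 HT genes 26 had a row in the SUDHL6 table, and of the 20 SUDHL6 genes 15 had a row in HT. The tables were normalized separately, so levels are set side by side between lines and not tested.

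Of the 26 HT members with a SUDHL6 row, 13 were also under 0.5 FPKM in both SUDHL6 DMSO libraries, 5 were at 1 FPKM or more in both, and 8 lay between. Thus 5 genes low in HT with DMSO were expressed in SUDHL6 with DMSO. The lower iEZH library exceeded the higher DMSO library in 17 of the 26 (65.4%), where this holds for 31.3% of longer SUDHL6 rows. Low rows were in this order more often in general. Among the 13 low genes it was 8 (61.5%), close to the 57.3% of all low SUDHL6 rows, and a share near that background is no result about the members. Among the other 13 it was 9 (69.2%), where 28.9% of all rows that were not low did so. No test of these shares was made. Over the 26 genes without a filter the median log2 change was 0.36, against 0.05 over all longer rows, and 22 of 26 had a change above 0, against 58.9%. Split by starting level, the 13 low genes had a median of 0.23 against 0.17 over all low rows, with 11 above 0 against 81.1%, which is near the background. The other 13 had a median of 0.49 against 0.04 over all rows that were not low, with 11 above 0 against 56.8%.

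**Figure D4:**
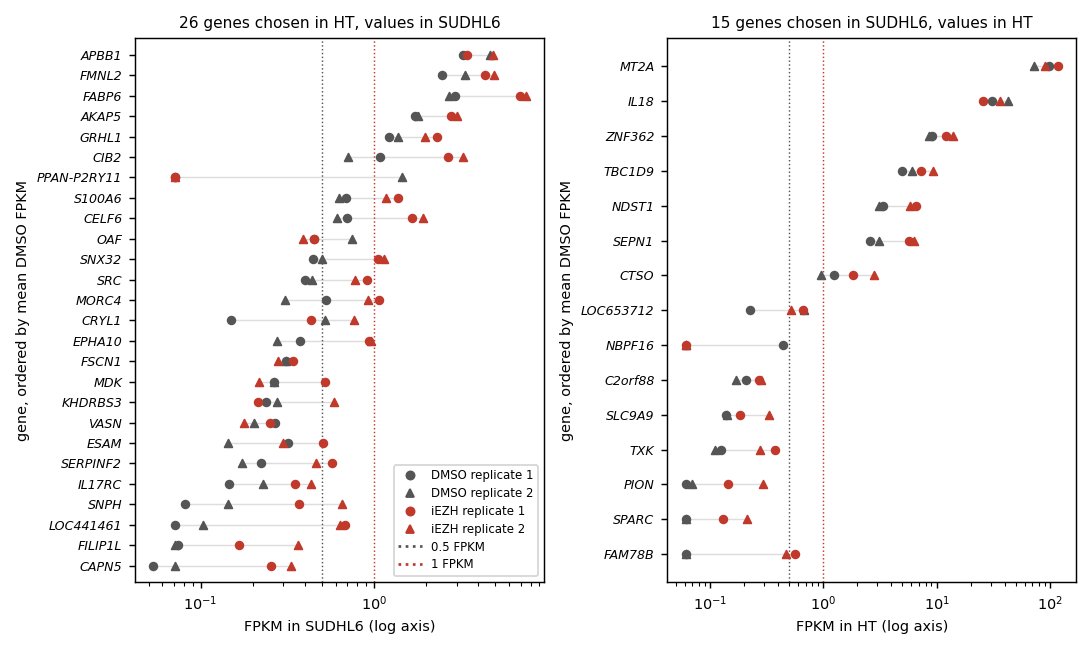
FPKM (log axis) in SUDHL6 of the 26 HT members with a row there (left) and in HT of the 15 SUDHL6 members with a row there (right), DMSO in grey and iEZH in red, circles for replicate 1 and triangles for replicate 2, dotted lines at 0.5 and 1 FPKM. MT2A and IL18, under 0.5 FPKM in SUDHL6 with DMSO, lie above 25 FPKM in every HT library.

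Of the 26, 9 passed the filter of 1 FPKM in at least 2 SUDHL6 libraries. They were tested with limma on SUDHL6 alone, without a replicate block, on log2(FPKM + 1), a scale that understates the change of low genes. None passed at an adjusted p of 0.05 (nor with rows of 300 bp or more only, where 0.0182% were called higher), where 0.152% of all SUDHL6 genes tested were called higher (17 of 11173), and 8 of the 9 had an unadjusted p under 0.05, as had 18.8% of all SUDHL6 genes tested. Of the 9, CELF6, S100A6 and SNX32 entered the test only through their iEZH values, and of the other 6 genes 5 had such a p. FABP6 came nearest. In SUDHL6 it was at 2.93 and 2.72 FPKM with DMSO and 6.91 and 7.48 with iEZH, or 2.83 ± 0.148 and 7.2 ± 0.4 (SD, n = 2 libraries; log2 change 1.10, SE 0.11, limma adjusted p = 0.0659). The groups did not overlap, and the DMSO level of this ileal gene was already well above the 0.321 to 0.461 FPKM of HT.

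CIB2, a calcium-binding protein needed in the hair cells of the inner ear, was at 1.08 and 0.709 FPKM in SUDHL6 with DMSO and 2.68 and 3.26 with iEZH (log2 change 1.07, SE 0.16, limma adjusted p = 0.113). In HT, where it was chosen, it was at 0.429 and 0.248 and then 1.71 and 1.5 FPKM. CELF6 was at 0.696 and 0.608 FPKM in SUDHL6 with DMSO and 1.65 and 1.91 with iEZH (0.75, SE 0.12, limma adjusted p = 0.118). AKAP5 was at 1.73 and 1.78 and then 2.78 and 3.01 FPKM (0.50, SE 0.11, limma adjusted p = 0.135). In these 3 genes the treatments did not overlap in SUDHL6. For CELF6 this is fixed by how it entered the test, and in HT it is set by the rule.

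FMNL2 was at 2.48 and 3.37 FPKM in SUDHL6 with DMSO and 4.37 and 4.92 with iEZH (log2 change 0.53, limma adjusted p = 0.188), and SNX32, a sorting nexin, at 0.445 and 0.504 and then 1.06 and 1.14 (0.51, limma adjusted p = 0.138). S100A6 was at 0.688 and 0.624 and then 1.38 and 1.17 FPKM (0.46, limma adjusted p = 0.163), and GRHL1 at 1.22 and 1.37 and then 2.32 and 1.96 (0.45, limma adjusted p = 0.172). Again both iEZH libraries of these genes lay above both DMSO libraries, as in 28.9% of all SUDHL6 rows that were not low. APBB1 differed from these genes, with 3.24 and 4.68 FPKM with DMSO and 3.42 and 4.88 with iEZH (0.05, SE 0.22, limma adjusted p = 0.93). Its groups overlapped, and its SUDHL6 DMSO level was above the iEZH level of HT. For SNX32, S100A6 and CELF6 the direction and the lack of overlap are fixed by how they entered the test.

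The HT members that stayed under the filter in SUDHL6 split by size of difference. EPHA10 was at 0.372 and 0.277 FPKM with DMSO and 0.93 and 0.965 with iEZH, just short of the minimum of 1 FPKM. SRC was at 0.398 and 0.439 and then 0.909 and 0.779 FPKM, LOC441461 at the floor of 0.0712 and 0.104 and then 0.679 and 0.637, and SNPH at 0.0816 and 0.144 and then 0.369 and 0.649. These 4 genes had both iEZH libraries above both DMSO libraries, as did IL17RC with 0.145 and 0.228 and then 0.351 and 0.431. Of all low SUDHL6 rows 57.3% had that order. FSCN1 was at 0.312 and 0.311 and then 0.342 and 0.281 FPKM, and VASN at 0.268 and 0.202 and then 0.251 and 0.177, both overlapping. The readthrough row PPAN-P2RY11, the highest HT member, was at the floor in 3 SUDHL6 libraries and at 1.45 FPKM in DMSO replicate 2. Of the 13 genes low in SUDHL6, 8 had an iEZH mean at least 2 times the DMSO mean (61.5%), where 36% of all low SUDHL6 rows did (397 of 1103), a share that was not tested.

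The 15 HT members with no row in the SUDHL6 table were CHGB, CLDN5, CYB561, DLX1, DLX2, ECHDC3, GGT6, HECTD2, LOC100131138, MYBPHL, NPPC, SPP1, TMEM121, TNNI1 and TSPAN9. Among them are 4 of the 9 nervous system genes, 3 of the 5 vessel and platelet genes and both muscle genes, whose SUDHL6 levels were not analysed here.

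Seen from the other side, 7 of the 15 SUDHL6 members with an HT row were low in both HT DMSO libraries, 6 were at 1 FPKM or more in both, and 2 lay between. In HT the lower iEZH library exceeded the higher DMSO library in 11 of 15 (73.3%), where this holds for 32.1% of longer HT rows. Among the 7 low genes it was 6 (85.7%, against 58.5% of low HT rows), and among the other 8 it was 5 (62.5%, against 28.5%), shares of few genes that were not tested. The median log2 change without a filter was 0.24 over the 15, against 0.04 over all longer rows, and 13 of 15 had a change above 0, against 56.3%. The 7 low genes had a median of 0.14 against 0.12 over all low rows, with 6 above 0 against 83.1%, which is near the background. The other 8 had a median of 0.51 against 0.02, with 7 above 0 against 52.6%. With limma on HT alone, rows of any span and no replicate block, none of the 7 tested passed. In that fit 0.459% of all HT genes tested were called higher (52 of 11321). Of the 7, 5 had an unadjusted p under 0.05, as had 21.4% of all HT genes tested.

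SEPN1, a selenoprotein of the endoplasmic reticulum needed in muscle (chromosome 1, 26126666 to 26144713), was at 2.6 and 3.12 FPKM in HT with DMSO and 5.67 and 6.25 with iEZH, or 2.86 ± 0.371 and 5.96 ± 0.416 (SD, n = 2 libraries; log2 change 0.85, SE 0.14, limma adjusted p = 0.0588). NDST1 was at 3.39 and 3.12 and then 6.58 and 5.78 FPKM (0.75, SE 0.13, limma adjusted p = 0.0645). With the fit restricted to rows of 300 bp or more, SEPN1 and NDST1 passed as higher in HT (limma adjusted p = 0.0288 and 0.0353), where 4.07% of the genes then tested were called higher (454 of 11164). Both were low only in SUDHL6, at 0.382 to 0.454 FPKM with DMSO.

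CTSO, a lysosomal cysteine protease, was at 1.25 and 0.954 FPKM in HT with DMSO and 1.83 and 2.83 with iEZH (log2 change 0.65, limma adjusted p = 0.142). TBC1D9, a GTPase-activating protein by its domain, was at 4.97 and 6.04 and then 7.32 and 9.28 FPKM (0.51, limma adjusted p = 0.173), and ZNF362, a zinc finger protein, at 9.08 and 8.64 and then 12.2 and 13.9 (0.51, limma adjusted p = 0.114). In none of the 3 did the treatments overlap in HT.

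IL18 and MT2A showed the widest distance between the lines. IL18 was at 30.6 and 42.2 FPKM in HT with DMSO and 25.4 and 36.3 with iEZH (log2 change -0.24, SE 0.24, limma adjusted p = 0.624), and the groups overlapped. MT2A was at 98 and 72.6 and then 117 and 90.9 FPKM (0.29, SE 0.21, limma adjusted p = 0.49), again overlapping. In SUDHL6 with iEZH both genes reached about 2 FPKM, far under their level in HT with either treatment.

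The SUDHL6 members low in HT were FAM78B, SPARC, PION, SLC9A9, TXK, C2orf88 and NBPF16. FAM78B, an uncharacterised gene, was at the floor of 0.0613 FPKM in both HT DMSO libraries and at 0.565 and 0.474 FPKM with iEZH. SPARC was at the floor in both and at 0.13 and 0.212 FPKM with iEZH, and TXK was at 0.125 and 0.112 and then 0.372 and 0.277. Except for NBPF16 (0.441 FPKM and the floor, then the floor in both), these genes had the order of SUDHL6 at a level under the rule. Of all low HT rows 58.5% had that order. ACTA2, GAB1, POU5F1P4, SEPT8 and TMEM200A had no row in the HT table.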

How the data were processed

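Total RNA, per the labels, of HT and SUDHL6 cells was sequenced in 8 libraries. The FPKM values used come from 1 table per line, which the authors' name for it calls filtered for detectable genes. A gene without a row was not analysed, whatever its level. TopHat 1.4.1, Cufflinks and the build hg19 are named in the submitters' processing notes. Strandedness, library kit and annotation are not given in the sources used here. Per the file headers, detection was set at 10 reads and quantification at 50, and many of the lowest FPKM values of a table share 1 value. Depth per gene is unknown, so no counting intervals are given. Columns were matched to samples by the line, treatment and replicate in the headers, with 0 left unmatched. In HT 1 row was dropped because a value in it was not numeric. Gene coordinates are those of the tables, on hg19.

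FPKM values were used as deposited. For each line, genes reaching 1 FPKM in 2 or more of its 4 libraries entered limma 3.58.1 under R 4.3.3 (log2(FPKM + 1), eBayes with trend, no replicate block). Two-sided p-values were Benjamini-Hochberg adjusted across every gene in that fit, and a call is an adjusted p under 0.05. The fits were tested on simulated data, in which more highly expressed genes were given 1 large known change and noise was independent between libraries. That setting does not cover the low levels and smaller changes of most members. The members, lists, tests and alternatives were chosen with earlier results of these data known, and the tissue groups after the members were seen. Named are the 10 highest members per line, those with the largest and lowest changes in the other line, up to 4 per list, and those beside the thresholds; further members are given as values, chosen after they were seen. A marker of the cell type check is not reported here.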

Additional observations from a re-analysis of the deposited data

Results flagged for a closer look

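OAF, a secreted protein gene chosen in HT, stood in opposite order in the 2 lines. In HT it was at 0.327 and 0.347 FPKM with DMSO and 1.95 and 1.24 with iEZH. In SUDHL6 it was at 0.453 and 0.747 FPKM with DMSO and 0.45 and 0.391 with iEZH, so both iEZH libraries lay below both DMSO libraries. The log2 change of FPKM + 1 was -0.17 (limma without a filter, unadjusted p = 0.226). The replicate 1 libraries were nearly equal in SUDHL6, and 19.2% of all longer SUDHL6 rows had this order. The difference between the lines was not tested, since the HT direction is set by the rule.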

How the results depend on the processing

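The counts of members depend on the thresholds. With a DMSO ceiling of 0.25 FPKM 10 HT genes and 1 SUDHL6 gene were left, with 0 for the reverse rule in each line. With an iEZH minimum of 2 FPKM 2 and 1 were left, with 0 and 1 for the reverse rule, so in SUDHL6 the excess over the reverse rule did not hold there. A span of 1000 bp (40 and 19 genes), median-ratio rescaling (37 and 16) and leaving out overlapping rows (38 and 16, with 1 for the reverse rule in HT) moved the counts by less than 1.5 times, and every gene then left was among the 41 and 20. Leaving out a library makes the rule looser by construction. It gave 54 to 76 genes in HT and 37 to 48 in SUDHL6, with 4 to 17 and 4 to 10 for the reverse rule and 0 to 1 shared. In HT it gave 63 without DMSO replicate 1 and 76 without iEZH replicate 1; in SUDHL6 45 and 43 without DMSO replicates 1 and 2, and 48 and 37 without iEZH replicates 1 and 2. The reverse rule gave 17 in HT without DMSO replicate 2 and 10 in SUDHL6 without DMSO replicate 1.

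The labels give replicate numbers no meaning. Deviations of same-numbered libraries from their group means correlated at 0.65 in HT and 0.74 in SUDHL6 across genes, which is a hint from the data on 2 pairs. With a replicate block 8 HT members were called higher in SUDHL6 and 5 SUDHL6 members in HT, among 1485 and 1558 genes called higher (13.3% and 13.8%). With the block and rows of 300 bp or more only, they were 8 and 6, among 2389 and 2209. With both lines in 1 fit 3 (CELF6, CIB2 and FABP6) and 2 (SEPN1 and NDST1) were called, among 259 and 433, and with rows of 300 bp or more only 0 and 2, among 2 and 454. Leaving out a library kept both counts at 0. All genes called higher were 10 in SUDHL6 and 4 in HT without a filter, 8 in HT with a filter on the mean, 23 in HT with quantile normalization, 12 to 50 in HT and 15 to 33 in SUDHL6 without 1 library. The median log2 change of HT members in SUDHL6, 0.51 over the 9 tested, 3 of which entered only through iEZH (0.52 over the other 6), became 0.36 without a filter, 0.31 with quantile normalization and 0.86 at a pseudocount of 0.1, and lay at 0.48 to 0.54 without 1 library. That of SUDHL6 members in HT, 0.51 over 7, became 0.24 without a filter and lay at 0.43 to 0.67 without 1 library. The sign changed for APBB1 in SUDHL6 with quantile normalization (-0.12) and without DMSO replicate 1 (-0.16) or iEZH replicate 2 (-0.15), with a range of -0.16 to 0.27 without 1 library, and for IL18 in HT without iEZH replicate 1 (0.013), with a range of -0.48 to 0.013. With 2 libraries a group and values near the authors' level of 50 reads, small differences of low genes cannot be resolved.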

Other observations

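The genes that met the reverse rule were CD69 and VLDLR in HT and ETV4 and FAM9B in SUDHL6. CD69, an early activation antigen of lymphocytes, was at 1.27 and 1.03 FPKM with DMSO and 0.448 and 0.389 with iEZH. VLDLR, a lipoprotein receptor, was at 1.18 and 1.09 and then 0.142 and 0.379 FPKM. ETV4, an ETS transcription factor, was at 2.06 and 2.13 FPKM in SUDHL6 with DMSO and 0.365 and 0.225 with iEZH, the largest difference of the 4. FAM9B was at 1.03 and 1.27 and then 0.218 and 0.441 FPKM.

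No gene met the rule in both lines. Of the 13 HT members that were low in SUDHL6 none reached 1 FPKM in both iEZH libraries (0 of 13), where 1.81% of low SUDHL6 rows did, and of the 7 SUDHL6 members low in HT 0 did, where 2.57% of low HT rows did. Without DMSO replicate 2 of each line, SNX32 met the rule in both lines, and without DMSO replicate 1, SLC25A53 did.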
